A study of Homo sapiens with 9 samples.

Results

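Interferon response genes were examined by RNA sequencing in 9 libraries of a human cancer cell culture study. The set is a list of 35 genes that interferons are known to switch on, taken by gene symbol from a table of counts for 17911 genes; all 35 had a row. The labels name MDA-MB-231 as the source of every sample. This established line comes from a human triple-negative breast cancer. The labels describe 3 small spheroid, 3 large spheroid and 3 capsule samples. Spheroids are clumps of cells, grown here by liquid overlay on a surface that cells do not attach to, and the title of the series sets small spheroids beside capsules. Every sample, the capsules included, carried the same treatment: liquid overlay with 5% Matrigel, a basement membrane extract, after trastuzumab, an antibody against the receptor ERBB2, with 96 h of incubation before RNA was taken. The growth medium was RPMI with 10% fetal bovine serum and antibiotics for all, and no untreated or interferon-treated culture stood among the samples compared here. The labels give the cell type of all samples as WT.

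The counts came in 3 sets of 3 columns, called here by their header names. The MDA.cap columns matched the 3 capsule samples. The MDA.L.O and Sph.WT columns matched the 6 spheroid samples as a group, but the headers gave no spheroid size, so neither set was called small or large. The Sph.WT headers named no cell line and ended in another file suffix than the other 6. The labels say nothing of separate cultures for the replicates, so the p-values measure the spread between these libraries, which may be technical.

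Interferons are secreted proteins that cells release when they sense viral or misplaced nucleic acid. Type I interferons bind a receptor made of IFNAR1 and IFNAR2, whose kinases JAK1 and TYK2 phosphorylate STAT proteins. Of these, STAT2 joins IRF9 in a complex that binds the interferon-stimulated response element in promoters and turns on a large set of genes, many of them antiviral. Tumour cells can carry a standing level of this programme without added interferon.

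The letters of that element were looked up in the promoters, because the genes described below share this route of control as background knowledge. RefSeq promoter entries (GRCh38.p14), which run from 250 bases before to 50 bases after an annotated start, were found for 28 of the 35 genes. The pattern GAAANNGAAA, or TTTCNNTTTC on the other strand, with overlapping matches counted, stood in 20 of the 28 promoters (71.4%), and 13 held it at least 2 times. Among all 27305 genes with an entry, 1195 held it (4.38%), and 0.311% held it at least 2 times. A match describes the letters in this window and is not evidence of binding.

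The windows below run from 160 bases before to 10 bases after the start, 5' to 3' on the strand of the gene, with letters of the pattern in capitals. ISG15 (chr1:1013337-1013506, plus strand) and BST2 (chr19:17405621-17405790, minus strand) held overlapping repeats and stood in the group that was lower in capsule libraries, and IFIT1 (chr10:89392463-89392632, plus strand) held 2 separate matches. IFI6 (chr1:27672183-27672352, minus strand) held 3 and was highest in the MDA.L.O libraries. PARP14 (chr3:122680679-122680848, plus strand) held 1 match and was nearly without counts in 6 libraries. STAT2 (chr12:56360098-56360267, minus strand) and XAF1 (chr17:6755886-6756055, plus strand; 1 of 2 starts listed) held none in the windows shown. STAT2, without a match, also stood in the group that was lower in capsule libraries.
ISG15: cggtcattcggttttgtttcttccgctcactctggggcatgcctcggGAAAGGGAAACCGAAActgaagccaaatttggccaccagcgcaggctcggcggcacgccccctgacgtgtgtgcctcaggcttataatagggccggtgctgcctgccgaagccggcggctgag
IFIT1: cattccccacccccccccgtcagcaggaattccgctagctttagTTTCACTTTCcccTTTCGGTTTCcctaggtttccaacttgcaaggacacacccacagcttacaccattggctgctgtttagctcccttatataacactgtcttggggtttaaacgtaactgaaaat
BST2: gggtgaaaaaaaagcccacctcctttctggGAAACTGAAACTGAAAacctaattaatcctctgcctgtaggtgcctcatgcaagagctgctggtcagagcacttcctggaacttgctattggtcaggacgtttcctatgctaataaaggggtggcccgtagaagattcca
IFI6: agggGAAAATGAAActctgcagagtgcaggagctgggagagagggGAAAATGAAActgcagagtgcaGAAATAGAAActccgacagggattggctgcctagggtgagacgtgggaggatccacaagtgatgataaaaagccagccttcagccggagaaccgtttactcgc
PARP14: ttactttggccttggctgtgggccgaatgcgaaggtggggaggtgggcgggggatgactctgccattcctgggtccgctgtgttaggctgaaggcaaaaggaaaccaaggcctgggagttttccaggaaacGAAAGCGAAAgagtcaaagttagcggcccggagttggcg
STAT2: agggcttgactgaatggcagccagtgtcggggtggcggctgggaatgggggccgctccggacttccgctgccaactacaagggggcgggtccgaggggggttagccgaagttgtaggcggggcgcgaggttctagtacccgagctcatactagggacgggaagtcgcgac
XAF1: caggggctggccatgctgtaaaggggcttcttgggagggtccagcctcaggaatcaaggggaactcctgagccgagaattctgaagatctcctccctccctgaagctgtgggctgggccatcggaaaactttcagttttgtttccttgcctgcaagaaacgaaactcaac

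Library totals were 13212665 to 13735221 counts in the capsule set, 15525725 to 15988167 in MDA.L.O and 16605098 to 33263076 in Sph.WT. Levels are given as CPM, counts scaled to a library total of 1000000. Where a gene has no count, a level of up to 3 counts is still possible, or 0.218 to 0.227 CPM in the capsule libraries, from counting error alone. Pairs of libraries within a set correlated at a Pearson's r of 0.993 to 0.996 in log2(CPM + 0.5), taken across genes, which are no independent replicates. Between capsule and MDA.L.O it was 0.979 to 0.986, whereas Sph.WT stood apart at 0.75 to 0.769 against MDA.L.O and 0.764 to 0.773 against capsule.

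Genes that mark cell lines went against the MDA-MB-231 label in 6 of the 9 libraries. A list of 15 genes abundant in MDA-MB-231 summed to 439.9 to 445.6 CPM in capsule, 692.7 to 763.8 in MDA.L.O and 6830 to 7111 in Sph.WT. VIM alone, a gene of that list, averaged 339 CPM in capsule, 511.5 in MDA.L.O and 983 in Sph.WT. CD44, a surface glycoprotein abundant in this line, averaged 2.20 CPM in capsule, 5.72 in MDA.L.O and 849 in Sph.WT. CDKN2A and CDKN2B, cell-cycle inhibitors whose locus is deleted in MDA-MB-231, summed to 493.7 to 572.4 CPM in capsule and 506.1 to 732.1 in MDA.L.O, against 0.662 to 1.16 in Sph.WT. Of 10 genes abundant in HEK293, an established embryonic kidney line, 8 were measured; they summed to 2181 to 2350 CPM in capsule, 2098 to 2271 in MDA.L.O and 52.7 to 62.2 in Sph.WT, where 3 of them were at 0. Markers of cell types that a line should lack were summed too. Fibroblast markers (6 of 7 measured) summed to 44.0 to 48.1 CPM in capsule, 92.5 to 104 in MDA.L.O and 167 to 198 in Sph.WT, and endothelial markers (3 of 5) to 0.515 to 0.984, 1.54 to 2.63 and 5.96 to 10.3 CPM. The highest fibroblast sum rests on COL1A2, at a mean of 148 CPM in Sph.WT and under 1 CPM elsewhere, whereas COL1A1, COL3A1, PDGFRA and the endothelial VWF had lower means in Sph.WT than in MDA.L.O. The part of such markers in the results was not tested. The libraries are therefore named by their headers and labels, without taking any set as proven MDA-MB-231. In every comparison with Sph.WT, culture, cell identity and file origin move together and cannot be told apart.

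**Figure D1:**
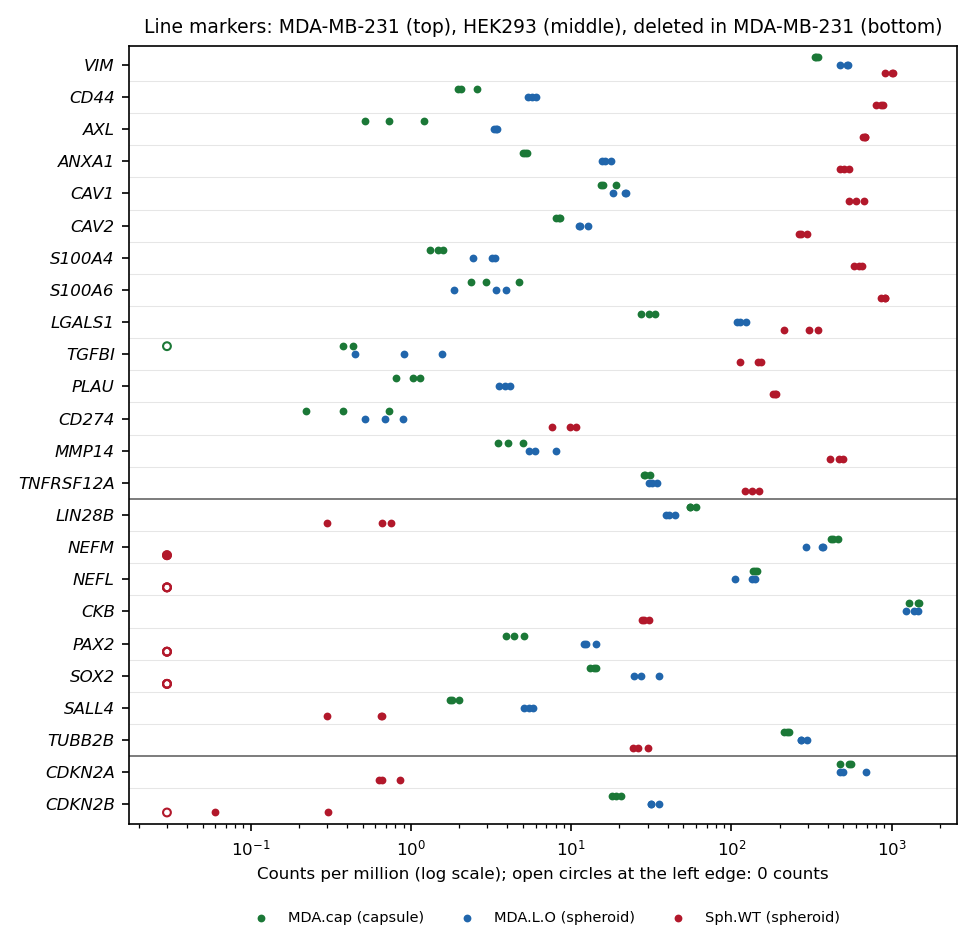
CPM of cell line marker genes in each of the 9 libraries on a log axis, 1 point per library, with green for capsule, blue for MDA.L.O and red for Sph.WT. Capsule and MDA.L.O points lie below the Sph.WT points for the MDA-MB-231 genes and above them for the HEK293 genes, CDKN2A and CDKN2B. The levels vary by gene. VIM is high in all sets, and SALL4 is low in all, at means of 1.85 CPM in capsule and 5.43 in MDA.L.O.

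The 35 interferon response genes together took the fewest counts in the capsule libraries and the most in Sph.WT. Their CPM summed to 344.6, 360.6 and 358.6 in capsule libraries 1, 2 and 3. In MDA.L.O the sums were 555.5, 531.2 and 539.2 CPM, and in Sph.WT 1696, 1617 and 1699 CPM. The sets did not overlap. In bulk RNA, fewer cells of a type and less RNA per cell cannot be told apart. The median gene of the list stood at 4.15 to 4.71 CPM in capsule and 5.07 to 6.72 in MDA.L.O, well under the median of all genes there (16.5 to 16.9 and 19.1 to 19.4 CPM). In Sph.WT the order was the opposite, with the list's median at 29.3 to 31.7 CPM and that of all genes at 15.7 to 15.9.

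Most of the list was detected in every set, but at different strengths. At least 1 CPM in all 3 libraries was reached by 22 of 35 genes in capsule, 25 in MDA.L.O and 33 in Sph.WT, beside 79.4%, 83.2% and 74.4% of all genes. For 19 of the 35, all 3 MDA.L.O libraries lay above all 3 capsule libraries, for none all below, and for 16 the sets overlapped; 38.7% of all genes with counts in these libraries lay above in this way. For 28 genes, all Sph.WT libraries lay above all MDA.L.O libraries, where 30.7% of all genes did. The exceptions were IFITM1, USP18 and IFI6, which were higher in MDA.L.O without overlap, and IRF7, RSAD2, IFITM2 and IFI44L, which overlapped.

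**Figure D2:**
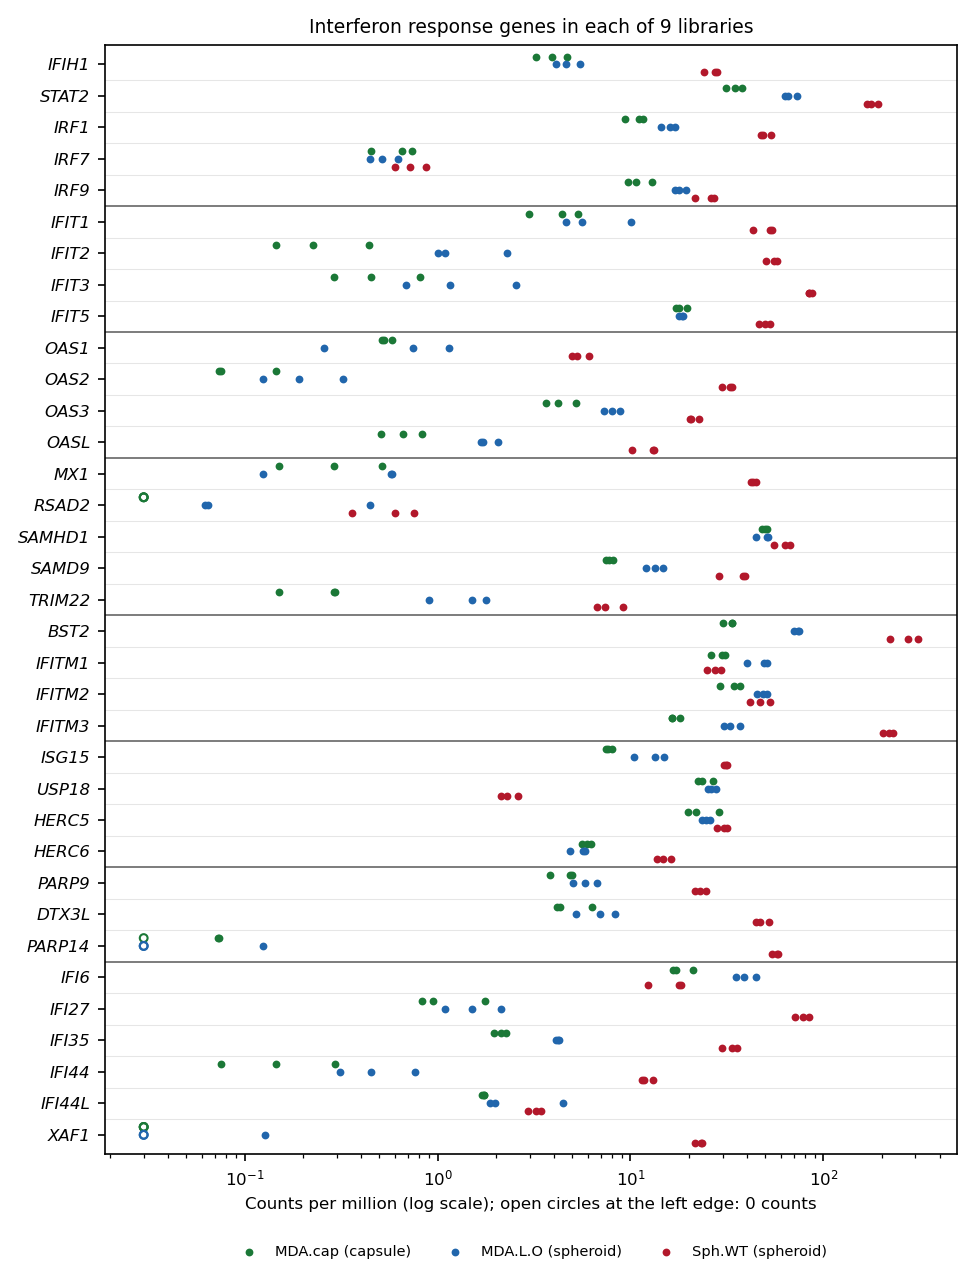
CPM of each of the 35 interferon response genes in each library on a log axis, 1 point per library, with open circles at the left edge for 0 counts, and green for capsule, blue for MDA.L.O and red for Sph.WT. Most red points stand to the right of the others, USP18 is the gene whose red points stand far to the left, and blue points stand to the right of green ones for 19 genes.

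Capsules were first compared with the MDA.L.O spheroids, the 2 sets with like marker profiles and like headers. Of 34 genes tested, 17 were lower in capsule libraries, 0 were higher and 17 were not called (edgeR quasi-likelihood test, Benjamini-Hochberg adjustment over 16985 genes, threshold 0.05). Of all genes, 23% were called lower and 22.5% higher in capsule. The median log2 fold change, capsule minus MDA.L.O, was -0.54 over the list and -0.018 over all genes tested. Fold changes come from the fit, which scales the libraries by TMM, a correction for composition. Library totals in its place would shift this difference by -0.15 on the log2 scale for every gene. They would shift MDA.L.O minus Sph.WT by 0.46 and capsule minus Sph.WT by 0.31. Fitted folds below Sph.WT are therefore larger than the CPM show. At an unadjusted p under 0.05, 18 genes of the list passed for capsule against MDA.L.O. IRF7, OAS1, OAS2, MX1, PARP14, IFI44 and XAF1 passed the low-count filter only through Sph.WT, which this comparison does not include. Of these, only IFI44 was called. With the capsule and MDA.L.O libraries fitted alone, 16 genes of the list were called.

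Genes of low level were more often called lower than higher in capsule throughout the table, so the list was also read by level. Of genes averaging 10 to 100 CPM over the 6 libraries, 22.9% were lower and 28.9% higher, with a median log2 fold change of 0.05. In this range 10 of the 14 interferon response genes were lower, with a median of -0.55. Of genes between 1 and 10 CPM, 30.6% were lower and 6.24% higher, and 3 of 10 of the list were lower. The medians there were nearer to each other, -0.25 over all genes and -0.42 over the list. Below 1 CPM, 14.9% of all genes were lower and 2.67% higher, and 4 of 10 of the list were lower. The medians were -0.41 over all genes and -1.12 over the list. These 10 include the genes that passed the filter only through Sph.WT. None of the list reached 100 CPM.

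**Figure D3:**
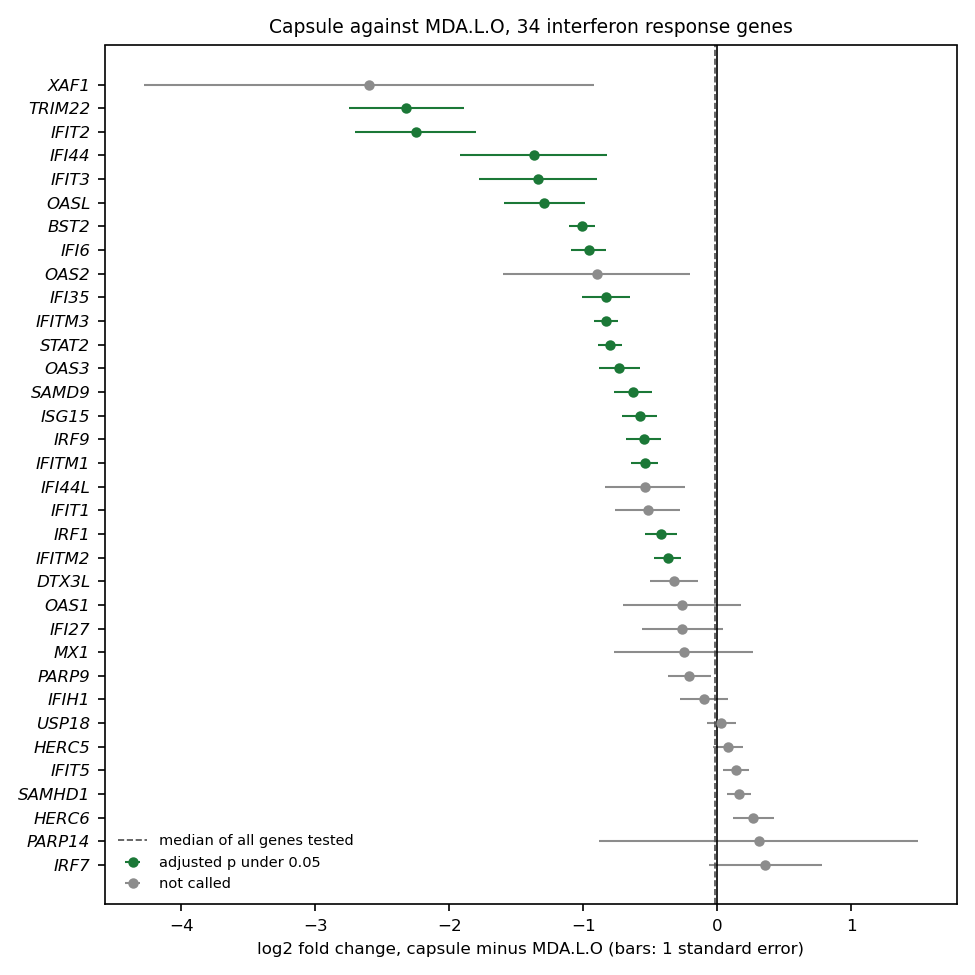
Log2 fold change, capsule minus MDA.L.O, for the 34 interferon response genes tested, with bars of 1 standard error; green points passed an adjusted p of 0.05 and grey points did not, and the dashed line is the median of all genes. The 17 green points all lie left of 0, between -2.32 and -0.37.

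Sensors and transcription factors start and carry the response. STAT2, the STAT that is particular to the type I and type III pathways, stood at 31.3, 34.9 and 37.8 CPM in the capsule libraries, at 65.4, 72.7 and 63.4 in MDA.L.O and at 191, 177 and 167 in Sph.WT. The 3 sets did not overlap, and STAT2 was 1.75-fold lower in capsule than in MDA.L.O (log2 fold change -0.80 ± 0.09, where ± gives the standard error here and below, adjusted p = 2.7e-07 by edgeR). IRF9, its DNA-binding partner, stood at 9.76, 12.96 and 10.7 CPM in capsule, at 19.5, 17.0 and 17.8 in MDA.L.O and at 26.1, 27.2 and 21.6 in Sph.WT. It was 1.46-fold lower in capsule than in MDA.L.O (-0.55 ± 0.13, adjusted p = 0.00163 by edgeR) and 1.91-fold lower in MDA.L.O than in Sph.WT, again with no overlap. By mean CPM the latter difference was 1.38-fold. IRF1, a transcription factor that interferon gamma induces strongly, stood at 9.38, 11.7 and 11.03 CPM in capsule, 16.1, 16.9 and 14.4 in MDA.L.O and 47.6, 53.7 and 48.8 in Sph.WT. Its 1.33-fold lower level in capsule passed the test (adjusted p = 0.00597 by edgeR) but not without capsule library 1, where the log2 fold change was -0.33. IFIH1, which encodes the RNA sensor MDA5, stood at 3.25, 3.93 and 4.71 CPM in capsule and 4.61, 4.13 and 5.47 in MDA.L.O, which overlapped, and at 24.1, 28.1 and 27.3 CPM in Sph.WT. It was not called between capsule and MDA.L.O (-0.10 ± 0.18) and was 7.73-fold lower in MDA.L.O than in Sph.WT. IRF7, which drives a second wave of interferon production, was under 1 CPM in all 9 libraries (0.448 to 0.872 CPM), and the sets overlapped.

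The IFIT proteins bind foreign RNA and are among the genes most strongly induced by interferon. IFIT2 stood at 0.227, 0.146 and 0.441 CPM in capsule, at 2.30, 1.00 and 1.09 in MDA.L.O and at 50.3, 57.2 and 55.5 in Sph.WT. The sets did not overlap: IFIT2 was 4.76-fold lower in capsule than in MDA.L.O (-2.25 ± 0.45, adjusted p = 0.00032 by edgeR) and 50.9-fold lower in MDA.L.O than in Sph.WT. The first fold rests on only 3, 2 and 6 counts in the capsule libraries. IFIT2 stayed called lower in capsule than in MDA.L.O under the other settings, with log2 fold changes from -2.77 to -1.76. IFIT3, its binding partner, stood at 0.454, 0.291 and 0.809 CPM in capsule, at 2.56, 0.688 and 1.16 in MDA.L.O and at 84.5, 86.9 and 84.4 in Sph.WT. Capsule and MDA.L.O overlapped, and the call (2.53-fold lower in capsule, adjusted p = 0.0154 by edgeR) was lost without MDA.L.O library 1 (log2 fold change -0.67), without capsule library 2 (-1.05) and with limma-voom (-1.18). IFIT1, which recognises the cap of foreign RNA, stood at 5.37, 2.98 and 4.41 CPM in capsule, 10.1, 4.63 and 5.60 in MDA.L.O and 42.9, 52.9 and 54.4 in Sph.WT. It was not called between capsule and MDA.L.O (-0.52 ± 0.24, adjusted p = 0.0852 by edgeR), where 1 MDA.L.O library stood well above the others, but was called lower in capsule without capsule library 1 (-0.72), MDA.L.O library 2 (-0.74) or MDA.L.O library 3 (-0.64). It was 10.2-fold lower in MDA.L.O than in Sph.WT. IFIT5, a further member of the family, stood at 17.9, 17.2 and 19.6 CPM in capsule, 18.5, 17.9 and 18.7 in MDA.L.O and 46.3, 49.9 and 52.6 in Sph.WT. Capsule and MDA.L.O overlapped (0.14 ± 0.10), and MDA.L.O was 3.72-fold lower than Sph.WT.

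The OAS enzymes make an oligoadenylate signal when they bind double-stranded RNA, and OASL is a relative that boosts RNA sensing without that activity. OAS3 stood at 3.63, 4.22 and 5.22 CPM in capsule, 8.83, 7.32 and 7.99 in MDA.L.O and 20.3, 20.6 and 22.6 in Sph.WT. OASL stood at 0.833, 0.510 and 0.662 CPM in capsule, 1.73, 1.69 and 2.06 in MDA.L.O and 10.2, 13.05 and 13.2 in Sph.WT. For both genes the 3 sets were separate. OAS3 was 1.66-fold lower in capsule than in MDA.L.O (-0.73 ± 0.15, adjusted p = 0.000529 by edgeR) and OASL 2.45-fold (-1.29 ± 0.30, adjusted p = 0.00144 by edgeR). OAS2 was nearly without counts in capsule (0.0757, 0.146 and 0.0736 CPM) and in MDA.L.O (0.192, 0.125 and 0.322 CPM) and stood at 29.9, 33.7 and 32.8 CPM in Sph.WT, 201-fold above MDA.L.O in the fit. OAS1 lay between 0.258 and 1.15 CPM in capsule and MDA.L.O, and at 6.09, 4.96 and 5.30 CPM in Sph.WT. Neither OAS1 nor OAS2 was called between capsule and MDA.L.O.

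Effectors that act on viral replication ranged from genes almost without counts to genes present in every set. MX1, a GTPase that traps viral nucleocapsids, was at 0.151, 0.291 and 0.515 CPM in capsule, 0.576, 0.125 and 0.580 in MDA.L.O and 44.5, 43.3 and 42.2 in Sph.WT. MDA.L.O was 138-fold lower than Sph.WT (-7.11 ± 0.20, adjusted p = 2.06e-19 by edgeR), and capsule and MDA.L.O overlapped. MX1 passed the low-count filter only through Sph.WT, which favours this direction. TRIM22, a ubiquitin ligase that represses viral transcription, stood at 0.151, 0.291 and 0.294 CPM in capsule, 1.79, 1.5 and 0.902 in MDA.L.O and 7.35, 6.70 and 9.09 in Sph.WT. The sets did not overlap, and the 4.99-fold lower level in capsule against MDA.L.O passed the test (-2.32 ± 0.43, adjusted p = 0.000161 by edgeR). That fold rests on only 2, 4 and 4 counts of TRIM22 in the capsule libraries. SAMD9, a restriction factor of poxviruses, stood at 7.72, 7.50 and 8.09 CPM in capsule, 14.7, 13.4 and 12.0 in MDA.L.O and 28.8, 38.3 and 39.3 in Sph.WT. It too was separate in all 3 sets, 1.55-fold lower in capsule than in MDA.L.O (-0.63 ± 0.14, adjusted p = 0.000963 by edgeR). SAMHD1, which breaks down the deoxynucleotides that viruses need, varied little, at 48.2, 51.1 and 49.6 CPM in capsule, 51.2, 51.5 and 45.0 in MDA.L.O and 55.1, 67.3 and 63.3 in Sph.WT. It was not called between capsule and MDA.L.O (0.16 ± 0.09). In the fit it was 1.74-fold lower in MDA.L.O than in Sph.WT, and by mean CPM 1.26-fold. RSAD2, which encodes viperin, had no count in the capsule libraries, 0.0625 to 0.448 CPM in MDA.L.O and 0.361 to 0.752 CPM in Sph.WT. It did not pass the filter on low counts and was not tested; against a floor of 3 counts over the 3 capsule libraries, its Sph.WT level was at least 7.73-fold higher.

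All 4 membrane proteins of the list were lower in capsule than in MDA.L.O, where 23% of all genes were. BST2, which encodes tetherin, a protein that holds budding virus on the cell surface, stood at 33.8, 33.6 and 30.3 CPM in capsule, at 74.3, 73.4 and 70.1 in MDA.L.O and at 310.1, 223 and 274 in Sph.WT. The sets were far apart, with capsule 2.01-fold below MDA.L.O (-1.01 ± 0.10, adjusted p = 6.91e-08 by edgeR) and MDA.L.O 5.09-fold below Sph.WT. IFITM3, which blocks viral entry from endosomes, stood at 16.5, 18.0 and 16.3 CPM in capsule, 30.6, 32.96 and 37.0 in MDA.L.O and 219, 202 and 228 in Sph.WT. It was 1.78-fold lower in capsule than in MDA.L.O (-0.83 ± 0.09, adjusted p = 3.41e-07 by edgeR) and 8.89-fold lower in MDA.L.O than in Sph.WT.

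Its neighbours IFITM1 and IFITM2 followed another order. IFITM1 stood at 26.3, 30.9 and 29.9 CPM in capsule, 49.3, 40.3 and 51.1 in MDA.L.O and 29.3, 24.8 and 27.5 in Sph.WT. It was highest in MDA.L.O, which lay 1.46-fold above capsule (adjusted p = 0.000176 by edgeR) and 1.25-fold above Sph.WT (adjusted p = 0.0043 by edgeR), while capsule and Sph.WT overlapped. IFITM2 stood at 34.4, 37.0 and 29.2 CPM in capsule, 45.1, 48.6 and 50.9 in MDA.L.O and 47.1, 41.7 and 52.6 in Sph.WT. Its CPM overlapped between MDA.L.O and Sph.WT, and in the fit MDA.L.O was 1.34-fold lower, since the TMM scaling moves that difference: library totals would shift it by 0.46 on the log2 scale, enough to end that direction for IFITM2. The 3 IFITM genes are close copies that lie side by side at chr11:307816-320860 (GRCh38.p14), and reads shared between them may have been split, so their separate levels are uncertain. Per kilobase of joined exons (GENCODE release 29), BST2 was the most abundant gene of the list in all 3 sets, at 29.1, 64.9 and 240.4 CPM per kilobase.

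The ISG15 system attaches the ubiquitin-like protein ISG15 to other proteins. ISG15 itself stood at 7.64, 8.01 and 7.50 CPM in capsule, 14.8, 10.4 and 13.3 in MDA.L.O and 30.6, 31.1 and 31.7 in Sph.WT. The 3 sets did not overlap, and capsule was 1.5-fold below MDA.L.O (-0.58 ± 0.13, adjusted p = 0.00118 by edgeR). HERC5, the main ligase for ISG15, stood at 21.9, 19.9 and 28.7 CPM in capsule, 24.6, 25.8 and 23.5 in MDA.L.O and 28.1, 31.7 and 30.5 in Sph.WT. HERC6, its close relative, stood at 5.60, 5.97 and 6.25 CPM in capsule, 5.70, 5.82 and 4.83 in MDA.L.O and 13.8, 16.3 and 14.8 in Sph.WT. Neither ligase was called between capsule and MDA.L.O (0.08 ± 0.11 and 0.27 ± 0.15). Both were lower in MDA.L.O than in Sph.WT, by 1.69-fold and 3.80-fold in the fit and 1.22-fold and 2.74-fold by mean CPM.

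USP18, which removes ISG15 and also shuts off the interferon receptor, had its lowest level in Sph.WT. It stood at 23.6, 26.7 and 22.5 CPM in capsule, 27.8, 25.3 and 26.1 in MDA.L.O and 2.62, 2.13 and 2.29 in Sph.WT. Capsule and MDA.L.O overlapped, and MDA.L.O lay 8.21-fold above Sph.WT (log2 fold change 3.04 ± 0.13, adjusted p = 5.98e-16 by edgeR). USP41, a near-identical copy on the same chromosome, had 3.41 to 4.08 CPM in capsule, 3.54 to 4.94 in MDA.L.O and 0.241 to 0.422 in Sph.WT. Reads may have been split between the copies, and both rows were lower in Sph.WT than in the other 2 sets.

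PARP9 and DTX3L form a complex that supports the transcription of interferon response genes, and PARP14 is a related ADP-ribosyltransferase; the 3 genes lie close together on chromosome 3. PARP9 stood at 4.99, 4.88 and 3.83 CPM in capsule, 6.72, 5.07 and 5.80 in MDA.L.O and 21.6, 22.9 and 24.5 in Sph.WT. DTX3L stood at 4.31, 4.15 and 6.33 CPM in capsule, 6.97, 8.32 and 5.22 in MDA.L.O and 47.0, 51.9 and 44.8 in Sph.WT. Neither was called between capsule and MDA.L.O (-0.21 ± 0.16 and -0.32 ± 0.18), although DTX3L was called lower in capsule without capsule library 3 (-0.53) and without MDA.L.O library 3 (-0.48), and MDA.L.O was 5.40-fold and 9.67-fold lower than Sph.WT. PARP9 (chr3:122527924-122564784, minus strand) and DTX3L (chr3:122564338-122575203, plus strand; GRCh38.p14) overlap at their starts. The strand setting was not given in the sources used here, so reads in that overlap cannot be told apart. PARP14 had 2 counts in all over the 3 capsule libraries and 2 over the 3 MDA.L.O libraries, and 54.4, 58.0 and 57.3 CPM in Sph.WT. The ratio of Sph.WT to MDA.L.O was 1339 (95% counting interval 370.4 to 11060), and to capsule 1151 (318.5 to 9510).

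The last group joins the IFI genes and XAF1, several of which act at mitochondria or on cell death. IFI6, a membrane protein that protects against cell death and flavivirus replication, stood at 21.2, 17.2 and 16.6 CPM in capsule, 38.8, 35.1 and 45.0 in MDA.L.O and 17.8, 12.3 and 18.2 in Sph.WT. MDA.L.O was highest without overlap, 1.95-fold above capsule (adjusted p = 5.11e-06 by edgeR) and 1.81-fold above Sph.WT (adjusted p = 1.86e-06 by edgeR), and capsule and Sph.WT overlapped (-0.10 ± 0.14). IFI35 stood at 2.27, 1.97 and 2.13 CPM in capsule, 4.22, 4.13 and 4.25 in MDA.L.O and 35.7, 29.8 and 33.7 in Sph.WT. Here the order was the common one, with capsule 1.78-fold below MDA.L.O (-0.83 ± 0.18, adjusted p = 0.000571 by edgeR) and MDA.L.O 10.8-fold below Sph.WT.

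IFI27, among the genes that respond most to type I interferon, stood at 0.833, 0.947 and 1.76 CPM in capsule, 1.09, 1.5 and 2.13 in MDA.L.O and 84.5, 71.2 and 78.1 in Sph.WT. Capsule and MDA.L.O overlapped, and MDA.L.O was 68.0-fold below Sph.WT. IFI44 stood at 0.0757, 0.146 and 0.294 CPM in capsule, 0.768, 0.313 and 0.451 in MDA.L.O and 11.7, 11.4 and 13.1 in Sph.WT. Its call between capsule and MDA.L.O sat at the threshold (-1.37 ± 0.55, adjusted p = 0.0476 by edgeR) and was lost under 10 of 15 other settings, among them without capsule library 1, without MDA.L.O library 1 and by DESeq2. IFI44L, its neighbour at chr1:78620448-78646145 (GRCh38.p14), was low everywhere, at 1.69 to 1.75 CPM in capsule, 1.88 to 4.48 in MDA.L.O and 2.95 to 3.43 in Sph.WT. XAF1, which promotes apoptosis, had 0 counts in the 3 capsule libraries, 2 counts over the MDA.L.O libraries and 23.3, 21.7 and 23.5 CPM in Sph.WT. Against a floor of 3 counts over the capsule libraries, Sph.WT was at least 308.5-fold higher, and its ratio to MDA.L.O was 532.3 (95% counting interval 147.1 to 4399).

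Within a set, the libraries did not rank alike for every gene. MDA.L.O library 1 held the highest value of its set for 16 of 35 genes, among them IFIT1, IFIT2, IFIT3, IFI44, IFI44L and RSAD2, beside 33.6% of all genes. Capsule library 3 held the highest value for 16 of 33, beside 40.6% of all genes.

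Between the 2 spheroid column sets the list was lower in MDA.L.O. Of 34 genes tested, 31 were lower in MDA.L.O, 3 were higher (USP18, IFI6 and IFITM1) and 0 were left uncalled by edgeR; DESeq2 left 2 uncalled, IRF7 and IFI44L. Most genes of the table differed between these sets: 43.1% of all genes were lower and 42.4% higher in MDA.L.O. The median log2 fold change, MDA.L.O minus Sph.WT, was -2.39 over the list and -0.012 over all genes. PARP14, XAF1, OAS2, MX1, IFIT3, IFI27 and IFIT2 differed most. PARP14, XAF1, OAS2, MX1, IFI44, OAS1 and IRF7 passed the low-count filter only through Sph.WT. For them the filter itself favoured a lower level in MDA.L.O, so that direction is no separate support. Cell line markers and header differences move with this comparison, as given above.

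Against the same Sph.WT libraries, 30 of the 34 genes were lower in capsule, 1 (USP18) was higher and 3 (IRF7, IFITM1 and IFI6) were not called, where 42% of all genes were lower and 43% higher. The median was -2.87 over the list and 0.033 over all genes. The 2 comparisons share the Sph.WT libraries, so they are not independent. For the genes that passed the filter only through Sph.WT, it favoured a lower level in capsule here and against all spheroids. ISG15 was 5.01-fold lower in capsule and 3.34-fold lower in MDA.L.O than in Sph.WT, STAT2 6.40-fold and 3.66-fold, and BST2 10.2-fold and 5.09-fold. IFIT5 was 3.38-fold and 3.72-fold lower, and SAMHD1 1.55-fold and 1.74-fold lower. By mean CPM, the SAMHD1 differences were 1.25-fold and 1.26-fold.

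**Figure D4:**
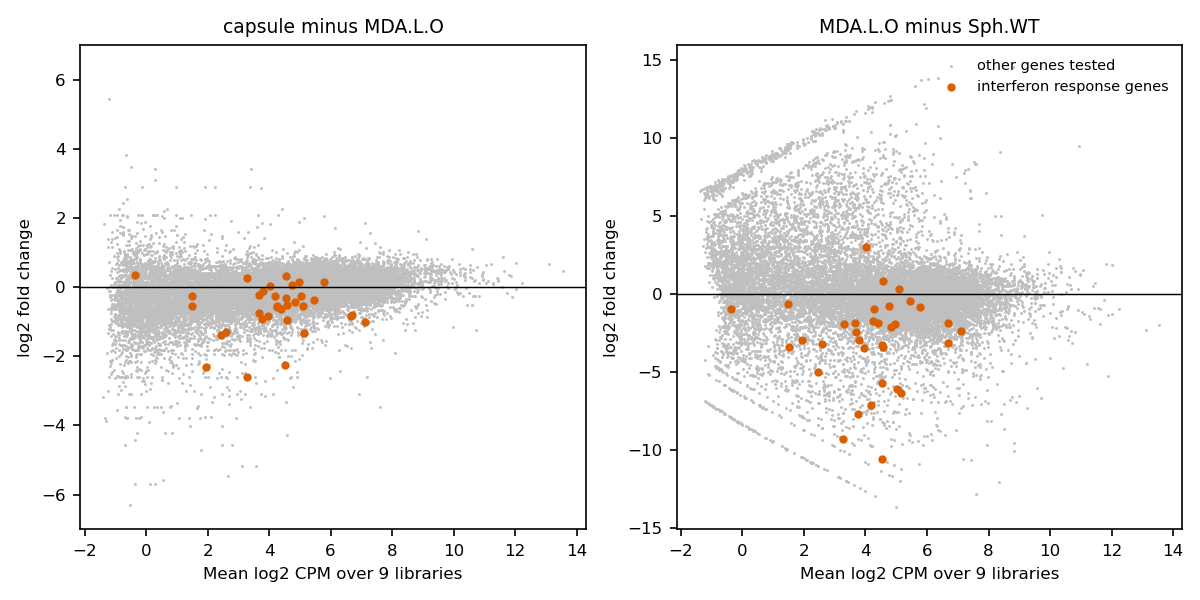
Log2 fold change against mean log2 CPM over 9 libraries for all genes tested (grey) and the interferon response genes (orange), with capsule minus MDA.L.O on the left and MDA.L.O minus Sph.WT on the right, on different vertical scales. Orange points lie mostly below 0 in both panels, 17 of them called lower on the left and 31 on the right, while the grey points spread to both sides.

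The labels themselves set capsules against spheroids as a whole. With a level for each column set and the capsule mean set against the mean of both spheroid sets, 32 of 34 genes were lower in capsule, 1 (USP18) was higher and IRF7 was not called, where 35.6% of all genes were lower and 38.9% higher in capsule. The median log2 fold change was -1.70 over the list and 0.038 over all genes. That average joins 2 unlike sets, and it was not stable to how they were joined. With the 6 spheroid libraries taken as 1 level, 0 of the 34 genes were called and 639 genes were called in all, against 12643 before. With MDA.L.O alone, 16 genes of the list were called lower and 0 higher, and with Sph.WT alone 30 were lower.

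Other genes of the pathway were read from lists of 97 symbols that are no members. With 5 older names of genes also listed under their newer names taken out, these were 92 genes, of which 69 had a row and 67 were tested. The 21 interferon genes of those lists were not analysed here. The receptor chains were present in every library. IFNAR1 stood at 60.6, 61.5 and 65.4 CPM in capsule, 64.0, 64.3 and 63.6 in MDA.L.O and 101, 117 and 118 in Sph.WT. IFNAR2 stood at 22.9, 22.4 and 21.9 CPM in capsule, 22.8, 21.4 and 21.4 in MDA.L.O and 19.5, 20.6 and 19.1 in Sph.WT. Neither chain of this type I receptor was called between capsule and MDA.L.O (0.12 ± 0.08 and 0.19 ± 0.10), and IFNAR1 was higher in Sph.WT. IFNAR2 was lower in MDA.L.O than in Sph.WT in the fit (-0.32 ± 0.10, adjusted p = 0.00348 by edgeR) and higher by CPM, without overlap, since library totals turn that difference to 0.14. Of the interferon gamma receptor chains, IFNGR1 was higher in capsule than in MDA.L.O (0.48 ± 0.08, adjusted p = 5.9e-05 by edgeR) and IFNGR2 was not called (-0.04 ± 0.19). IL10RB, the chain that type III interferon shares with interleukin-10 relatives, was lower in capsule (-0.39 ± 0.10, adjusted p = 0.00255 by edgeR). IFNLR1, the type III chain, stood at 12.2 to 17.5 CPM in capsule, 19.6 to 20.6 in MDA.L.O and 3.52 to 3.67 in Sph.WT, and was higher in MDA.L.O than in Sph.WT (2.01 ± 0.14, adjusted p = 4.71e-12 by edgeR).

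STAT3, which mainly carries interleukin-6 signals, was called lower in capsule than in MDA.L.O (-0.50 ± 0.07, adjusted p = 1.44e-05 by edgeR). JAK1, JAK2 and TYK2 were not called there (-0.04 ± 0.08, 0.10 ± 0.19 and -0.13 ± 0.07). Against Sph.WT, JAK1 and JAK2 were lower in MDA.L.O (-0.99 ± 0.08 and -0.95 ± 0.17) and TYK2 was not called (0.06 ± 0.07). By CPM, TYK2 was higher in MDA.L.O (163.7 to 182.4) than in Sph.WT (116.6 to 124.1), without overlap, so its result depends on the TMM scaling.

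All 16 sensors and adaptors tested were lower in MDA.L.O than in Sph.WT after TMM scaling, but IRF3, the factor that switches on interferon genes, turns from -0.21 to 0.25 with library totals and was higher in MDA.L.O by CPM, without overlap. Between capsule and MDA.L.O 5 were lower and 2 higher. Of all genes, 43.1% were lower in MDA.L.O than in Sph.WT, and 23% were lower and 22.5% higher in capsule than in MDA.L.O. IFI16, a DNA sensor, was at 0 to 0.147 CPM in capsule, 0 to 0.512 in MDA.L.O and 122 to 131 in Sph.WT. AIM2, which starts the inflammasome on DNA, had no count in the capsule libraries, up to 0.188 CPM in MDA.L.O and 6.34 to 9.33 in Sph.WT. TLR4, the receptor for bacterial lipopolysaccharide, had no count in capsule, up to 0.0644 CPM in MDA.L.O and 15.1 to 18.9 in Sph.WT, and TLR7, a sensor of single-stranded RNA, reached at most 0.0736, 0.2502 and 3.13 CPM. These 4 are the genes of the list with the strongest difference between capsule and all spheroids. They, and CGAS and TLR3 of the same list, passed the low-count filter only through Sph.WT. For these genes the filter favoured a lower level in capsule and MDA.L.O, so their direction against Sph.WT is no separate support. CGAS, which makes the messenger that STING1 reads, stood at 0.0728 to 0.294 CPM in capsule, 0.0640 to 0.258 in MDA.L.O and 36.1 to 44.3 in Sph.WT. STING1 itself stood at 1.97, 3.13 and 1.40 CPM in capsule, 10.1, 8.82 and 10.1 in MDA.L.O and 49.5, 55.4 and 46.5 in Sph.WT. The 3 sets did not overlap for STING1, and capsule was lower than MDA.L.O (-2.0 ± 0.20, adjusted p = 6.95e-08 by edgeR). CGAS and STING1 were named after their values were seen.

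**Figure D5:**
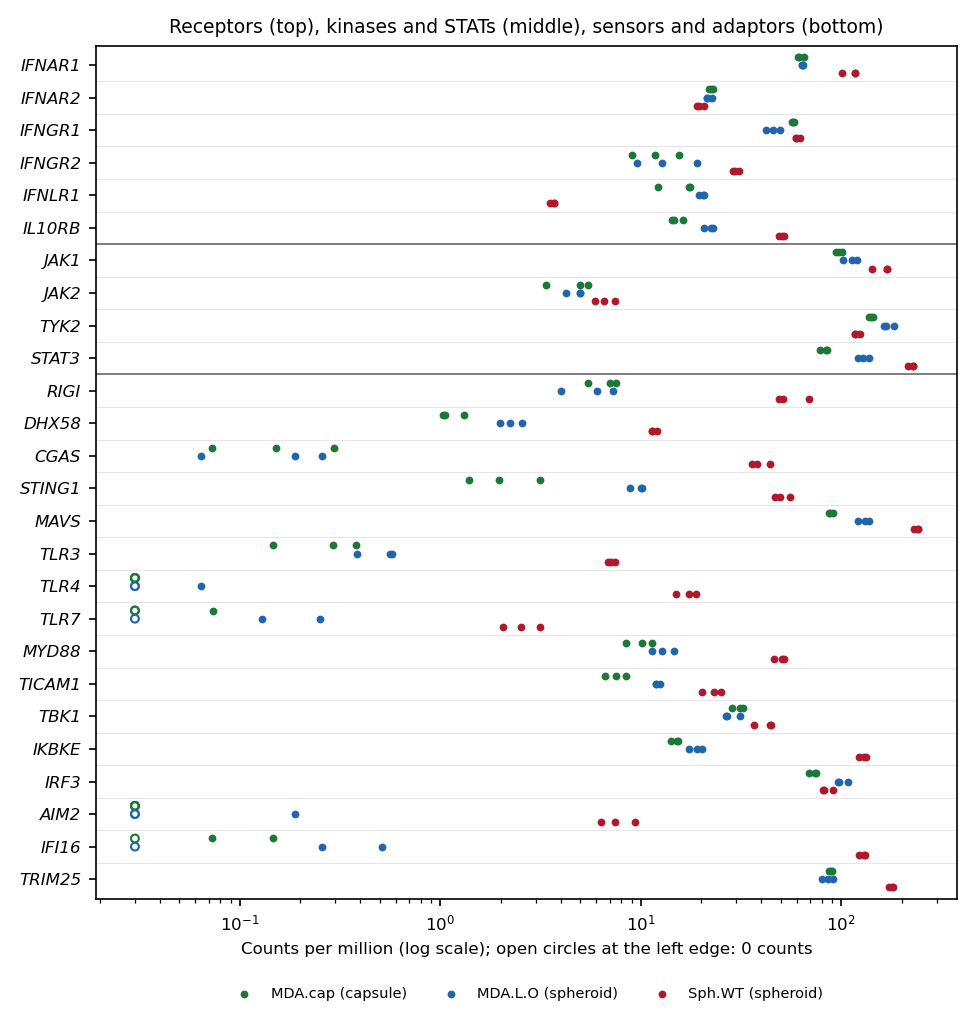
CPM of the interferon receptors, the kinases and STATs, and the sensors and adaptors in each of the 9 libraries on a log axis, 1 point per library, with open circles at the left edge for 0 counts, and green for capsule, blue for MDA.L.O and red for Sph.WT. Receptors and kinases have counts in every library, while AIM2, IFI16, TLR4, TLR7 and CGAS are at or near 0 in capsule and MDA.L.O and well above 1 CPM in Sph.WT.

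The enzymes before the ligase in the ISG15 system were UBA7, which activates ISG15, and UBE2L6, which carries it. UBE2L6 stood at 16.3, 17.0 and 15.1 CPM in capsule, 33.8, 31.9 and 37.4 in MDA.L.O and 57.5, 51.1 and 51.4 in Sph.WT. It was separate in all 3 sets and lower in capsule than in MDA.L.O (-0.94 ± 0.10, adjusted p = 1.81e-07 by edgeR). UBA7 overlapped between capsule and MDA.L.O (2.43 to 4.09 and 2.88 to 4.57 CPM) and stood at 60.5 to 66.8 CPM in Sph.WT.

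Inhibitors of the pathway moved in both directions. SOCS1 and SOCS3, which block the kinases, were lower in capsule than in MDA.L.O (-1.67 ± 0.44, adjusted p = 0.00359, and -0.70 ± 0.17, adjusted p = 0.00238, by edgeR). Both were lower in MDA.L.O than in Sph.WT as well (-1.54 ± 0.29 and -2.84 ± 0.13). SOCS2, better known for restraining growth hormone signals, was higher in capsule than in MDA.L.O (0.40 ± 0.13, adjusted p = 0.014 by edgeR) and higher in MDA.L.O than in Sph.WT (1.62 ± 0.15).

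Among 31 other induced genes tested, 14 were lower and 2 higher in capsule than in MDA.L.O, where 23% of all genes were lower and 22.5% higher. In MDA.L.O against Sph.WT, 30 were lower and 1 higher, where 43.1% of all genes were lower and 42.4% higher. With library totals in place of TMM, 2 of those 30, ADAR and ZC3HAV1, turn from -0.34 to 0.12 and from -0.39 to 0.07. MX2, GBP1, GBP3, GBP4, GBP5, CXCL10, CXCL11, SAMD9L, APOL1, APOL6 and DDX60L passed the low-count filter only through Sph.WT. The filter itself favoured a lower level of these genes in MDA.L.O than in Sph.WT, so that direction is no separate support. GBP2, a GTPase that interferon gamma induces, stood at 0.530, 0.291 and 0.736 CPM in capsule, 1.54, 2.00 and 1.61 in MDA.L.O and 141, 134 and 147 in Sph.WT. It was lower in capsule than in MDA.L.O (-1.57 ± 0.29, adjusted p = 0.000169 by edgeR), with no overlap between the sets. GBP4, SAMD9L and DDX60L were under 0.6 CPM in every capsule and MDA.L.O library and stood at 17.1 to 19.5, 24.0 to 29.99 and 40.4 to 47.6 CPM in Sph.WT. SAMD9L, the neighbour and relative of SAMD9, was called lower in capsule than in MDA.L.O at the threshold (-1.94 ± 0.79, adjusted p = 0.0498 by edgeR), and GBP4 and DDX60L were not called there. The capsule and MDA.L.O libraries overlapped for SAMD9L, and Sph.WT, which alone brought it through the filter, is not in this comparison. APOL1 and APOL6, also called lower in capsule, passed the filter in the same way.

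Over all 67 pathway genes tested outside the list, 25 were lower and 7 higher in capsule than in MDA.L.O, with a median of -0.38. Of all genes, 23% were lower and 22.5% higher there, with a median of -0.018. Between MDA.L.O and Sph.WT, 61 of the 67 were lower and 3 higher in MDA.L.O, with a median of -1.67. The 61 include the pathway genes named above that passed the low-count filter only through Sph.WT. For those the filter favoured this direction, so it is no separate support. Of all genes, 43.1% were lower and 42.4% higher in MDA.L.O, with a median of -0.012. Among the 67, 4 of the directions between MDA.L.O and Sph.WT turn with library totals, those of IFNAR2, IRF3, ADAR and ZC3HAV1. By promoter, 9 of 19 tested interferon response genes that held the GAAANNGAAA pattern were lower in capsule than in MDA.L.O (median -0.54). Of those without the pattern, 4 of 8 were lower (median -0.48). Between MDA.L.O and Sph.WT the medians were -2.43 and -2.02.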

How the data were processed

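The deposited values were raw read counts per gene for 17911 Entrez genes in 9 columns, whole numbers with no normalization by the authors. The submitters' processing notes name hg38, featureCounts and limma, without versions or roles. Aligner, annotation and strandedness are not given in the sources used here. Columns were matched to samples by name.

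CPM used library totals (13212665 to 33263076 counts). Tests used edgeR 4.0.16 (R 4.3.3): TMM, the default low-count filter (16985 genes; 34 of the 35 members), quasi-likelihood F tests with a level for each of 3 column sets, and Benjamini-Hochberg adjustment over all genes at 0.05. The common biological coefficient of variation was 7.73%. Scripts were tested on simulated data. SE is the log2 fold change divided by the square root of F. The number in the column names did not pair libraries: correlations of deviations were -0.116 to 0.022 for the same number.

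All members were named by role; of other pathway genes, the receptors in full, the kinases and STATs and up to 4 per list with the strongest change between capsule and all spheroids. Members and lists were chosen with earlier results of these data known. Some genes of these lists are not reported here. The contrasts of capsule with each spheroid set alone were added after the data were seen. Promoters were RefSeq entries, matched by symbol; those of IRF7, USP18, OAS2, OASL, IFIT2, TRIM22 and IFITM2 were not used here. Alternatives were DESeq2 1.42.0, its size factors, limma-voom (limma 3.58.1), other filters, a replicate block, each library left out, and 2 levels.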

Additional observations from a re-analysis of the deposited data

How the results depend on the processing

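Capsule against all spheroids depended on how the spheroid sets were joined: 12643 genes were called with a level per set, 639 with 2 levels and 7970 with MDA.L.O alone. Genes of the list called were 33, 0 and 16, and those lower 32, 0 and 16. Leaving out 1 library gave 11859 to 12687 genes, 31 to 33 called and 30 to 32 lower. For capsule against MDA.L.O those ranges were 6426 to 8018 of 7732 and 15 to 18 of 17, and all other settings gave 15 to 18. For MDA.L.O against Sph.WT they were 14312 to 14760 genes, 33 to 34 called and 30 to 31 lower, and for capsule against Sph.WT 14194 to 14688, 31 to 32 and 30 to 31.

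With the column number as a replicate block, 16 genes of the list were called for capsule against MDA.L.O, 31 against Sph.WT, 33 against all spheroids and 34 between the spheroid sets; 12337, 14350, 7134 and 14243 genes were called in all for capsule against all spheroids, between the spheroid sets, and for capsule against MDA.L.O and against Sph.WT. The block ended the IFI44 call (-1.37) and no other of the list for capsule against MDA.L.O. Different-number correlations were -0.087 to 0.142.

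Signs changed only in uncalled values, or called ones with MDA.L.O alone, where IFIT5 was 0.14, SAMHD1 0.16, HERC5 0.08 and HERC6 0.27, none called. IRF7 against all spheroids was 0.05 without capsule replicate 1 (-0.25 to 0.05 over the libraries left out); IFIT5 ranged from -0.85 to -0.77, SAMHD1 -0.28 to -0.19, HERC5 -0.45 to -0.19 and HERC6 -0.73 to -0.64. For capsule against MDA.L.O, without capsule replicate 1 IFIH1 was 0.02 and MX1 0.07; without replicate 2, USP18 was -0.05 and PARP14 -0.03; without replicate 3, HERC5 was -0.07 and PARP14 -0.02. Without MDA.L.O replicate 1, OAS1 was 0.25, MX1 0.03 and PARP14 -0.18; without replicate 2, USP18 was -0.00; without replicate 3, IFIH1 was 0.01, MX1 0.03, PARP14 -0.18 and IFI27 0.02. USP18 was -0.01 with DESeq2 and with its size factors. The ranges were -0.23 to 0.02 for IFIH1, -0.65 to 0.25 for OAS1, -0.75 to 0.07 for MX1, -0.05 to 0.10 for USP18, -0.07 to 0.19 for HERC5, -0.18 to 2.90 for PARP14 and -0.65 to 0.02 for IFI27. The cause was not tested. Depth limits what can be said of genes near 0 counts, such as PARP14, XAF1, RSAD2 and MX1 in capsule and MDA.L.O. No value was had for XAF1 where no compared library held a count.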
